A study of Mus musculus with 8 samples.

Results

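The genes described here build the lysosome of cultured mouse macrophages: its hydrolases, the proteins that activate them, its membrane proteins, the transcription factors TFEB and TFE3, and the vacuolar proton pump (V-ATPase). Members were the 27 symbols of a fixed list plus every symbol that starts with Atp6v or Atp6ap, which came to 50 of the 17364 genes in the deposited tables. By role they were 19 hydrolases, 2 activators (Psap and Grn), 4 membrane proteins, 2 transcription factors and 22 genes of the pump. The remaining symbol, Atp6v1fnb, lies next to Atp6v1f on chromosome 6 and is named after it; it was not counted as a pump subunit.

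The study sequenced RNA of bone-marrow-derived macrophages (BMDMs), cells differentiated in culture from marrow progenitors. There were 4 libraries from wild-type mice and 4 from Sept2C111A mice, whose allele, by its name, swaps a cysteine for an alanine in septin 2, a cytoskeletal protein that binds GTP. Every culture in both genotypes was treated with TNF-α (30 ng/ml, 24 h), and no untreated culture was analysed here. The labels do not state age, sex, strain background, zygosity or whether replicates were separate mice or cultures; the p-values therefore cover the spread of these libraries alone, and that spread may be technical.

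The lysosome is the acidic compartment in which macrophages break down what they engulf. Its enzymes work at low pH, which the V-ATPase maintains: the V1 sector in the cytosol splits ATP, and the V0 sector in the membrane carries the protons across. Many lysosomal genes carry a CACGTG-type site near their start, the CLEAR element, through which TFEB, TFE3 and MITF can raise their transcription together.

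To show such sites in the members, promoter windows of 300 bases (250 before and 50 from the transcription start) were read from RefSeq on GRCm38.p6, which held a window for 43 of the 50 members. The E-box core CACGTG was present in 12 of the 43 (27.9%) and the longer CLEAR core TCACGTGA, which contains it, in 5 (11.6%). Of 9986 genes tested in the expression comparison that had a window, 11.6% held CACGTG and 2.18% held TCACGTGA; both motifs read the same on either strand. A match is a description of the letters, not a shown binding site. Stretches are given for the 4 genes that were higher in Sept2C111A libraries and hold the E-box core (Gla, Naglu, Glb1, Lgmn), for the other 4 holders of TCACGTGA (Mcoln1, Atp6v1a, Atp6v0d1, Atp6v0e), and for Lamp1, which holds 4 E-box cores side by side. They run 5′ to 3′ along the gene, with CACGTG in capitals and up to 10 bases on either side.
Gla: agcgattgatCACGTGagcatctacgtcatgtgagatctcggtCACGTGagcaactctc
Naglu: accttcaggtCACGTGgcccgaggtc
Glb1: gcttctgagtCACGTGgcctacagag
Lgmn: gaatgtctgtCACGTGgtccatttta
Mcoln1: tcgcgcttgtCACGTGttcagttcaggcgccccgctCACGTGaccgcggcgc
Lamp1: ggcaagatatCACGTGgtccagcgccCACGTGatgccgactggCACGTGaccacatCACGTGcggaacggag
Atp6v1a: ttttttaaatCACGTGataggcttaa
Atp6v0d1: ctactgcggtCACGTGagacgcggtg
Atp6v0e: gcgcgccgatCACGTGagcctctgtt

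On GRCm38, the Gla stretch is chrX:134601184-134601242 (minus strand) and holds TCACGTGA at both of its sites. The Naglu stretch is chr11:101070011-101070036, the Glb1 stretch chr9:114401020-114401045, and the Lamp1 stretch chr8:13159090-13159161, all on the plus strand. Lgmn has windows at 2 starts, and the site lies in the second, at chr12:102439126-102439151 (minus strand). The remaining 4 are chr8:3500438-3500489 for Mcoln1 (of its 2 cores, the second is part of TCACGTGA) and chr17:26676389-26676414 for Atp6v0e on the plus strand, and chr16:44139375-44139400 for Atp6v1a and chr8:105566052-105566077 for Atp6v0d1 on the minus strand. The E-box core was found in 6 of 18 hydrolases, 2 of 4 membrane proteins and 4 of 16 pump genes with a window, and in neither activator. It was present in 4 of 9 members called higher (44.4%) and in 8 of 29 members not called (27.6%). TCACGTGA was present in 1 of the 9 and 4 of the 29.

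Library totals ran from 19543958 to 21288493 expected counts, and 45 of the 50 members passed the filter on low counts. The macrophage label was checked on 10 markers, all with means above 1 CPM (a gene's counts scaled to a common library total), with Lyz2 at a mean of 14365 and 12366 CPM in wild-type and Sept2C111A libraries and Csf1r at 3226 and 3237 CPM; the list summed to between 24253 and 25996 and between 21913 and 24053 CPM. Of the 10, edgeR called 1 higher, Fcgr1 (84.9 to 193 CPM), and 0 lower, with 3 higher and 4 lower at an unadjusted p under 0.05 (DESeq2 called 2 higher and 1 lower, limma voom 2 and 0). Stromal markers were also present: 10 genes summed to between 5220 and 6765 CPM in wild-type and between 4158 and 5135 CPM in Sept2C111A libraries, with Thy1 and Lum under 1 CPM. Of 9 tested, edgeR called 3 lower (Postn, Acta2, Col1a1), DESeq2 5 and limma voom 6. All 9 had a negative log2 fold change (median -0.4), 7 of them with an unadjusted p under 0.05 in edgeR. Of all genes tested, edgeR called 6.46%, DESeq2 11.5% and limma voom 10.9%, in either direction. The share with an unadjusted p under 0.05 in edgeR was 24.8%. Neutrophil markers summed to 125 to 164 and 160 to 212 CPM, with Ly6g, Mpo and Elane at 0 in wild-type libraries, and erythroid and megakaryocyte markers to 512 to 747 and 386 to 575 CPM. All 3 tested neutrophil genes had a positive log2 fold change (median 0.44), with 0 called by edgeR and 1 higher by DESeq2 and by limma voom. All 4 tested erythroid and megakaryocyte genes had a negative one (median -0.31), with 0 called by edgeR, 2 lower by DESeq2 and 1 lower by limma voom. B cell, T and NK cell, dendritic cell and mast cell lists each stayed under 25 CPM in every library; of 3 tested T and NK cell genes, Cd4 was called higher (14.5 to 21.1 CPM). In the proliferation list, 1 of 8 genes was called, a fall of Mki67 from 48.4 ± 1.46 to 28.9 ± 3.64 CPM. Of the 8, 7 had a negative log2 fold change (median -0.28), and 4 were lower at an unadjusted p under 0.05 in edgeR. DESeq2 called 2 lower and limma voom 1. The part of these differences in the lysosomal results was not tested, and in bulk RNA fewer cells of a type and less RNA per cell cannot be told apart. Septin2 itself had a log2 fold change of -0.27 (SE 0.076, adjusted p = 0.063). Its levels were 228, 226, 216 and 234 CPM in wild-type and 187, 195, 207 and 163 CPM in Sept2C111A libraries. Every Sept2C111A library thus lay below every wild-type library, as for 8.47% of all tested genes. The base change of the allele cannot be seen in gene counts.

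Both activators and 7 of the 19 hydrolases had more RNA in Sept2C111A than in wild-type libraries, with a log2 fold change of 0.59 for Gla and of 0.29 to 0.48 for the remaining 8, while no membrane protein, transcription factor or pump gene was called. In all, 9 of 45 tested members were called higher and 0 lower by edgeR at an adjusted p under 0.05. The background over all 12462 tested genes was 3.43% higher and 3.03% lower, or 6.46% either way. The median SE was 0.073 in the tested members and 0.1 over all tested genes, and a gene with a smaller SE can be called at a smaller change. The median log2 fold change was 0.14 in the hydrolases, 0.22 in the membrane proteins and 0.10 in the pump, against 0.01 over all tested genes, and 37 of the 45 members were above 0. Every Sept2C111A library lay above every wild-type library for 15 of the members and below for 1, where 8.47% of all tested genes did so in each direction (16.9% in either). At an unadjusted p under 0.05, 17 members were higher and 0 lower. Of all 12462 tested genes, 1534 were higher and 1558 lower at that level (24.8% in either direction). DESeq2 and limma voom with sample weights also called 0 members lower. No test was made of one role against another.

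**Figure D1:**
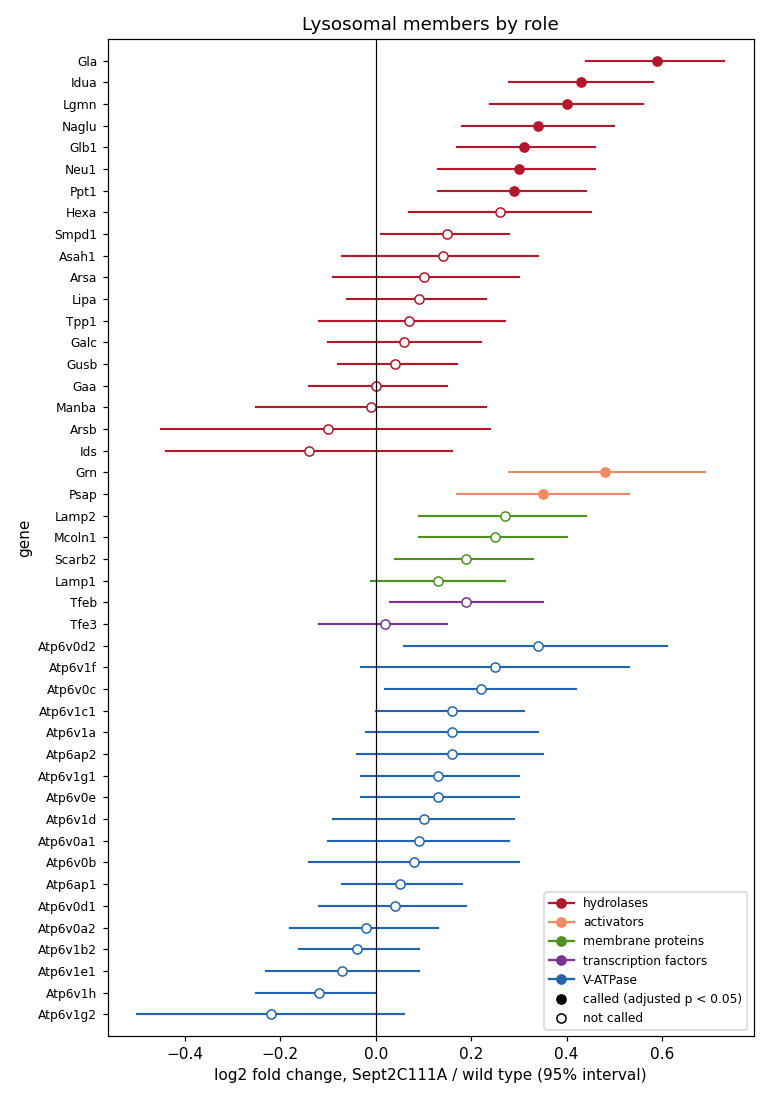
Log2 fold change of Sept2C111A over wild type (horizontal axis) for the 45 tested members, one row per gene and coloured by role. Bars are 95% intervals from the edgeR fit, and filled points were called at an adjusted p under 0.05. The 9 filled points, 7 hydrolases and 2 activators, lie between 0.29 and 0.59, and the pump genes between -0.22 and 0.34.

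Summed over all 50 members, CPM after TMM normalization ran from 25019 to 25777 in wild-type and from 28627 to 32204 in Sept2C111A libraries. The TMM factors were 1.013 to 1.032 in wild-type libraries and 1.009, 0.9657, 0.924 and 1.027 in Sept2C111A libraries 1 to 4. All sums given here are therefore normalized levels and not shares of raw reads, on which the groups were not compared. Summed over the 19 hydrolases, wild-type libraries held 5673, 5799, 5658 and 5703 CPM (libraries 1 to 4) and Sept2C111A libraries 6226, 6600, 6716 and 6715 CPM, so the groups did not overlap. The pump genes summed to between 3838 and 3992 CPM in wild-type and to 4015, 4301, 4747 and 3994 CPM in Sept2C111A libraries, the lowest of which was next to the highest wild-type library. For the membrane proteins the ranges were 2417 to 2583 and 2682 to 2942 CPM. Abundant genes weigh most in such sums. In wild-type libraries Lipa, Lgmn and Hexa had means of 1617, 1084 and 925 CPM, where the hydrolase sum had a mean of 5708 CPM. Lamp1 had a mean of 1818 CPM, where the sum of the membrane proteins had a mean of 2474 CPM. Psap and Grn together summed to between 12651 and 13463 CPM in wild-type and between 15264 and 18187 CPM in Sept2C111A libraries, more than the other roles combined.

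Among the sphingolipid enzymes, Gla and Glb1 were called of 7, and all 7 had a positive log2 fold change. Gla, the α-galactosidase that trims globotriaosylceramide (chromosome X, 134588149 to 134601125), measured 67.5, 70.3, 69.6 and 68.9 CPM in wild-type and 94.3, 102, 113 and 106 CPM in Sept2C111A libraries. The wild-type values lay within a few CPM of each other and far below the lowest Sept2C111A value. The log2 fold change was 0.59 (SE 0.066, adjusted p = 0.00078), and the exact two-sided permutation test over the 8 libraries gave p = 0.0286, the smallest that 4 against 4 allows. Gla was called in each of 17 alternative fits, with an adjusted p between 0.00064 and 0.0062 when a library was left out.

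Glb1, the β-galactosidase that acts on gangliosides and keratan sulfate (chromosome 9, 114401076 to 114474898), measured 135, 135, 137 and 138 CPM in wild-type and 152, 184, 172 and 168 CPM in Sept2C111A libraries. The groups did not overlap, and library 1 was the lowest of its genotype (log2 fold change 0.31, SE 0.065, adjusted p = 0.020). Its exons overlap Tmppe on the same strand, which measured a mean of 29.6 and 30.9 CPM. Hexa, the α subunit of β-hexosaminidase and by reads per kilobase the most abundant of the sphingolipid enzymes, measured 888, 914, 929 and 970 CPM and 987, 1154, 1268 and 1022 CPM. These groups did not overlap either, but the adjusted p was 0.092 (log2 fold change 0.26, SE 0.085), and Hexa was called without Sept2C111A library 4 (0.037). Smpd1, the acid sphingomyelinase, had means of 35.3 ± 0.960 and 39.2 ± 1.99 CPM (SD, n = 4 each) and an adjusted p of 0.16. Galc, Arsa and Asah1, which act on galactosylceramide, sulfatide and ceramide, had log2 fold changes of 0.06, 0.10 and 0.14 with overlapping groups.

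In the 5 enzymes of glycosaminoglycan breakdown, Idua and Naglu were called higher. Idua, the α-L-iduronidase of heparan and dermatan sulfate (chromosome 5, 108660331 to 108684557), measured 65.6, 72.0, 63.4 and 72.1 CPM in wild-type and 86.8, 95.9, 88.4 and 96.3 CPM in Sept2C111A libraries. No wild-type library reached the lowest Sept2C111A library (log2 fold change 0.43, SE 0.068, adjusted p = 0.0051), and the call held on leaving out any single library. Its exons overlap Dgkq and Slc26a1 on the other strand, at means of 14.7 and 0.533 CPM in wild-type and 13.5 and 0.558 CPM in Sept2C111A libraries. Naglu, the α-N-acetylglucosaminidase of heparan sulfate (chromosome 11, 101070012 to 101077672), measured 96.1, 93.7, 93.6 and 96.9 CPM and 109, 127, 132 and 112 CPM. Libraries 2 and 3 were the highest for Naglu (log2 fold change 0.34, SE 0.072, adjusted p = 0.022).

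Gusb, the β-glucuronidase and the most abundant of this set per kilobase, measured 337, 330, 327 and 329 CPM and 337, 328, 341 and 358 CPM. The groups overlapped, and the 95% interval of the log2 fold change ran from -0.08 to 0.17. Ids and Arsb, 2 sulfatases of the same pathway, spread widely among the Sept2C111A libraries. Ids measured 52.2, 45.5, 36.8 and 62.2 CPM there and between 50.5 and 60.8 CPM in wild-type libraries, and Arsb 19.7, 16.9, 11.2 and 21.1 CPM against 17.9 to 19.0 CPM. For both, Sept2C111A library 3 was below all other libraries and library 4 above all others.

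Of the enzymes of glycan and glycogen breakdown, Neu1 was called higher and Gaa and Manba were not. Neu1, the sialidase that works in a complex with Glb1 and the protective protein Ctsa (chromosome 17, 34931253 to 34935953), measured 95.2, 99.8, 93.1 and 98.6 CPM in wild-type and 112, 122, 135 and 106 CPM in Sept2C111A libraries. The gap between the groups was small beside the spread of the second (log2 fold change 0.30, SE 0.076, adjusted p = 0.045). Ctsa itself, named after its value was seen and held by the lists of other hydrolases and of cathepsins, went from 1472 ± 53.9 to 1651 ± 160 CPM and was not called (adjusted p = 0.22). Gaa, the acid α-glucosidase of glycogen, measured 173, 175, 181 and 189 CPM and 181, 193, 164 and 181 CPM, with a 95% interval of -0.14 to 0.15. Manba, the β-mannosidase, had a log2 fold change of -0.01.

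Lgmn and Ppt1 were called higher among the enzymes of proteins and lipid esters. Lgmn encodes legumain, a protease that cuts after asparagine and processes cathepsins (chromosome 12, 102394084 to 102439813). It measured 1061, 1042, 1108 and 1125 CPM in wild-type and 1295, 1516, 1536 and 1372 CPM in Sept2C111A libraries, with no overlap (log2 fold change 0.40, SE 0.073, adjusted p = 0.011). Ppt1, which removes palmitate from proteins (chromosome 4, 122836242 to 122859175), measured 118, 116, 108 and 109 CPM and 122, 140, 149 and 138 CPM. Library 1 of the Sept2C111A genotype was only just above the highest wild-type library (log2 fold change 0.29, SE 0.071, adjusted p = 0.039). Its exons overlap Cap1 on the other strand, which is more abundant (means of 774 and 726 CPM, log2 fold change -0.09). Lipa, the acid lipase of cholesteryl esters, went from 1617 ± 54.0 to 1715 ± 80.6 CPM and Tpp1, a tripeptidyl peptidase, from 413 ± 28.9 to 435 ± 51.0 CPM, neither of them called (adjusted p = 0.44 and 0.64).

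Psap was the most abundant member by CPM per kilobase, with the median or the longest transcript as the length. It encodes prosaposin, which is cut into the saposins that present lipids to the sphingolipid enzymes (chromosome 10, 60277627 to 60302597). It measured 10964, 10901, 11006 and 11496 CPM in wild-type and 13146, 15346, 15031 and 13042 CPM in Sept2C111A libraries (log2 fold change 0.35, SE 0.081, adjusted p = 0.029). Grn encodes progranulin, a secreted and lysosomal glycoprotein that binds prosaposin (chromosome 11, 102430315 to 102437048). It measured 1749, 1751, 1720 and 1967 CPM and 2267, 2841, 2727 and 2222 CPM (log2 fold change 0.48, SE 0.094, adjusted p = 0.015). In both genes the 4 Sept2C111A libraries lay above the wild-type libraries, with libraries 2 and 3 above libraries 1 and 4.

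**Figure D2:**
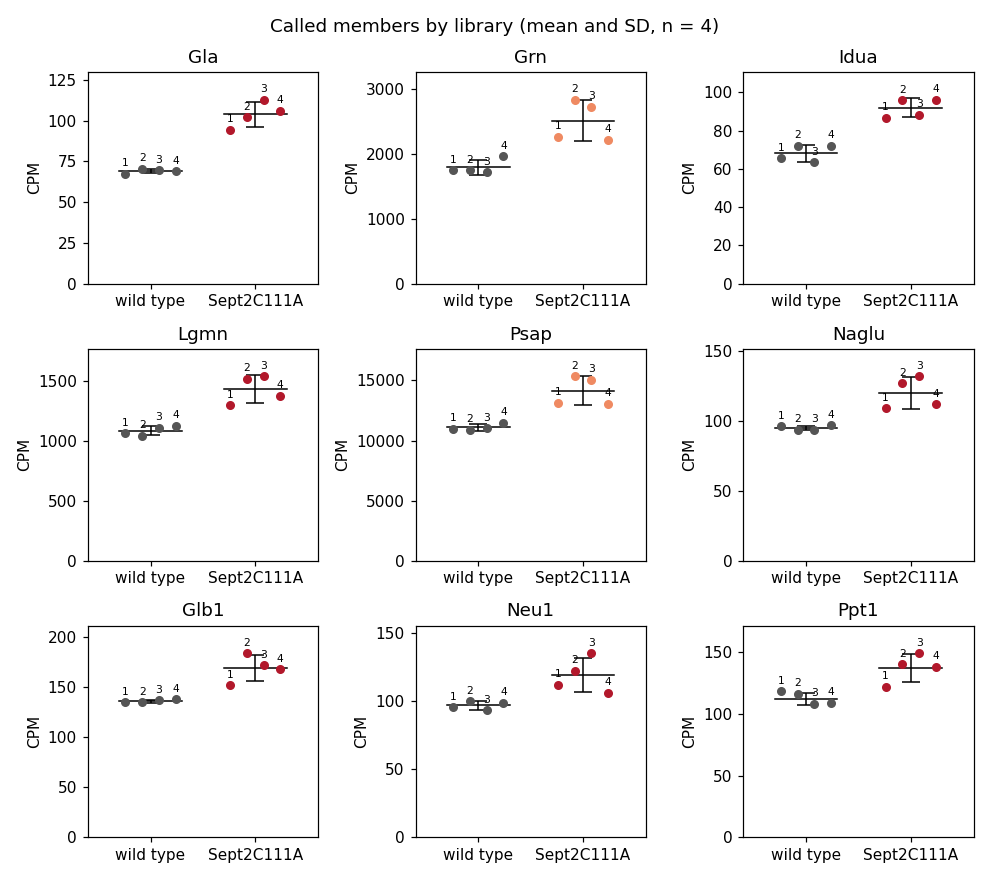
CPM (vertical axes, from 0) of the 9 called members in each library, numbered 1 to 4 within a genotype; lines and bars are the mean and SD (n = 4). In every panel all Sept2C111A points lie above all wild-type points, for Gla at 67.5 to 70.3 against 94.3 to 113 CPM.

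How far single libraries decided these calls differed between genes. Gla and Idua were called in all 17 alternative fits, Lgmn was lost in 1 of them, without wild-type library 1 (adjusted p = 0.054), and Grn in 2, without wild-type library 1 (0.065) or 3 (0.070). Psap, Naglu and Glb1 were each lost when one of the wild-type libraries, whichever it was, or library 2 of Sept2C111A was removed (adjusted p 0.056 to 0.11). Neu1 and Ppt1 were lost in those fits and also without Sept2C111A library 3 (adjusted p 0.059 to 0.15). With the sample number as a block, Glb1, Naglu, Psap, Neu1 and Ppt1 were also lost (0.056, 0.062, 0.070, 0.096 and 0.10), as was Neu1 with upper-quartile scaling (0.053). Without Sept2C111A libraries 2 and 3, Naglu, Glb1, Neu1 and Ppt1 were lost (0.064, 0.062, 0.15 and 0.15). The 9 genes had a positive log2 fold change in every fit that tested them. The share of all tested genes called also moved: it was 2.24%, 3.77%, 2.12% and 2.99% without wild-type libraries 1 to 4, and 7.76%, 2.86%, 5.66% and 16.5% without Sept2C111A libraries 1 to 4. It was 6.55% with DESeq2 size factors, 6.46% with upper-quartile scaling, 4.64% with no filter on low counts, 6.37% without the 20 most abundant genes and 3.96% with the sample number as a block.

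None of the 4 membrane protein genes passed, although all had a positive log2 fold change and 3 had an unadjusted p under 0.05. DESeq2 called 2 of them (Lamp2 and Mcoln1) and limma voom 1 (Lamp2), in fits that called 11.5% and 10.9% of all genes they tested. In edgeR, 6.46% of all tested genes were called and 24.8% had an unadjusted p under 0.05. Lamp1, a glycoprotein that lines the lysosomal membrane, measured 1814, 1871, 1795 and 1791 CPM in wild-type and 1962, 1947, 1945 and 2105 CPM in Sept2C111A libraries. The groups did not overlap, the change was small (log2 fold change 0.13, SE 0.061) and the adjusted p was 0.22. Lamp2, its paralog with a role in chaperone-mediated autophagy, measured 427, 472, 423 and 395 CPM and 481, 519, 490 and 574 CPM (log2 fold change 0.27, SE 0.078, adjusted p = 0.068). Mcoln1, the calcium channel TRPML1, measured 46.7, 45.4, 46.0 and 47.8 CPM and 49.5, 59.4, 57.5 and 54.1 CPM (log2 fold change 0.25, SE 0.068, adjusted p = 0.058). Neither pair of groups overlapped. Mcoln1 was called without Sept2C111A library 1 (0.028) or 4 (0.035). Scarb2, the receptor that carries glucocerebrosidase to lysosomes, had an adjusted p of 0.11 and overlapping groups.

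Of the 2 transcription factors, Tfeb measured 48.4, 48.6, 49.1 and 50.4 CPM in wild-type and 53.3, 60.9, 59.5 and 50.5 CPM in Sept2C111A libraries. Library 4 of the latter was barely above the highest wild-type library (log2 fold change 0.19, SE 0.071, adjusted p = 0.13), and without it Tfeb was called (0.032). Tfe3 measured 233, 249, 225 and 230 CPM and 238, 244, 221 and 245 CPM, with a 95% interval of the log2 fold change from -0.12 to 0.15. These factors are controlled largely by phosphorylation and entry into the nucleus, which mRNA counts do not show. Their relative Tfec, a macrophage-enriched member of the same family from the list of related genes, was called lower: 70.3, 69.9, 65.4 and 65.5 CPM in wild-type and 46.3, 42.7, 39.1 and 43.5 CPM in Sept2C111A libraries (log2 fold change -0.66, SE 0.067, adjusted p = 0.00048). Mitf, the fourth member, went from 94.9 ± 6.26 to 85.7 ± 5.80 CPM and was not called (adjusted p = 0.23). That list also holds the Rag GTPases, the Ragulator subunits and folliculin. Of its 19 tested genes, 0 were called higher and Tfec alone lower by edgeR. At an unadjusted p under 0.05, 6 were higher and 2 lower, and DESeq2 and limma voom each called 1 higher and 1 lower. Over all tested genes the shares in either direction were 6.46% in edgeR, 24.8% at an unadjusted p, 11.5% in DESeq2 and 10.9% in limma voom.

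No gene of the proton pump was called. Of the 18 that were tested, 13 had a positive log2 fold change, 2 had an unadjusted p under 0.05, and DESeq2 and limma voom with sample weights also called 0. Of all 12462 tested genes, 6460 had a positive log2 fold change, 24.8% had an unadjusted p under 0.05 and edgeR called 6.46%. DESeq2 and limma voom called 11.5% and 10.9%. Among only 18 genes, 0 calls by edgeR are near its share over all genes. Atp6v0c, the proteolipid that forms the rotating ring of V0 and the most abundant pump gene per kilobase, measured 1160, 1062, 1130 and 1114 CPM in wild-type and 1171, 1377, 1513 and 1151 CPM in Sept2C111A libraries. Libraries 1 and 4 lay within or next to the wild-type range and libraries 2 and 3 above it (log2 fold change 0.22, SE 0.092, adjusted p = 0.16). Without Sept2C111A library 4 it was called (0.046). The gene has processed pseudogenes in the annotation, with which the counting model may have shared reads.

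In the catalytic V1 sector, Atp6v1a, the ATP-splitting A subunit, measured 300, 321, 300 and 284 CPM and 303, 318, 334 and 391 CPM, and its partner Atp6v1b2, the B subunit, had means of 315 ± 6.31 and 307 ± 11.8 CPM (95% interval -0.16 to 0.09). Atp6v1f, a stalk subunit, measured 174, 156, 181 and 185 CPM and 184, 225, 258 and 162 CPM, the widest relative spread among the Sept2C111A values of any V1 gene, and was not called (adjusted p = 0.25; 0.039 without Sept2C111A library 4). Atp6v1h, a regulatory subunit, was the only member whose 4 Sept2C111A libraries all lay below the wild-type libraries: 86.5, 87.2, 88.2 and 80.2 CPM against 78.8, 76.2, 79.4 and 79.9 CPM. The difference was small (log2 fold change -0.12, SE 0.057) and did not pass (adjusted p = 0.21). Atp6ap1, an accessory subunit, went from 453 ± 14.7 to 469 ± 11.7 CPM and Atp6ap2, known as the prorenin receptor, from 122 ± 9.03 to 137 ± 16.4 CPM.

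Paralogs of a pump subunit differed in level, on a scale of CPM per kilobase of the median protein-coding transcript. For the membrane a subunit, Atp6v0a1 measured 181, 164, 173 and 186 CPM in wild-type and 169, 198, 214 and 168 CPM in Sept2C111A libraries, and Atp6v0a2 40.4, 47.3, 42.4 and 42.9 CPM and 43.8, 43.3, 39.0 and 44.1 CPM. Both pairs of groups overlapped. Per kilobase, Atp6v0a1 stood at 46.1 ± 2.57 and Atp6v0a2 at 8.09 ± 0.545 in wild-type libraries, and at 49.1 ± 5.95 and 7.96 ± 0.453 in Sept2C111A libraries. Tcirg1, the a3 form known for its role in osteoclasts, falls outside the symbol rule and stood above both, at 175 ± 6.18 and 192 ± 18.3; its log2 fold change was 0.13 (adjusted p = 0.31). For the d subunit, Atp6v0d1 measured 149, 144, 148 and 148 CPM and 150, 146, 171 and 137 CPM, with Sept2C111A libraries 3 and 4 on either side of all others. Per kilobase, Atp6v0d1 stood at 90.4 ± 1.42 and 92.7 ± 8.69 and Atp6v0d2 at 25.2 ± 3.37 and 31.7 ± 4.95. Of the G forms, Atp6v1g1 measured 155, 146, 159 and 152 CPM and 163, 164, 192 and 153 CPM, and Atp6v1g2 measured 6.96, 5.13, 5.89 and 6.49 CPM and 5.49, 4.88, 4.78 and 5.82 CPM. These groups overlapped as well (adjusted p = 0.29 and 0.30). Per kilobase, with the longest transcript as the length, Atp6v1g1 stood at 135 and 148 and Atp6v1g2 at 4.01 and 3.43. The order within the a, d and G forms was the same with either length.

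Atp6v0d2, the d form that is high in osteoclasts and some macrophages, had the largest positive log2 fold change of the pump (0.34, SE 0.12, adjusted p = 0.13). It measured 42.3, 30.3, 36.9 and 37.1 CPM in wild-type and 47.8, 36.1, 47.7 and 53.3 CPM in Sept2C111A libraries, so that library 2 was lowest in both genotypes. In the same libraries, 8 osteoclast markers summed to between 190 and 234 CPM and between 129 and 198 CPM. Of the 8, Dcstamp, Ocstamp and Oscar were under 1 CPM. Acp5 had means of 10.8 and 9.27 CPM in wild-type and Sept2C111A libraries, and Ctsk of 9.57 and 8.27 CPM. Of 6 markers tested, 5 had a negative log2 fold change (median -0.37, range -0.74 to 0.14), and 2 were lower at an unadjusted p under 0.05. EdgeR and limma voom called 0 and DESeq2 1 lower. Of all genes tested, 24.8% had an unadjusted p under 0.05, and the 3 tools called 6.46%, 10.9% and 11.5% in the same order. Without Sept2C111A libraries 2 and 3 Atp6v0d2 was called, with a log2 fold change of 0.46 (adjusted p = 0.040). Its paralog Atp6v0d1 had a log2 fold change of 0.04, with a 95% interval from -0.12 to 0.19.

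The 5 members that did not pass the filter were near or below detection. Atp6v1c2 and Atp6v1e2 had at most 1 read in any library, Atp6v1fnb at most 2 and Atp6v0a4 at most 3. Atp6v0e2 had between 4 and 11 reads per library. A library with no read of a gene lies below 0.140 to 0.159 CPM, the level of 3 counts, a limit that covers counting error only. Atp6v0a4 is the a form of the kidney's acid-secreting cells, and Atp6v1e2 the E form of the testis.

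The Sept2C111A libraries varied more among themselves than the wild-type libraries. The median coefficient of variation of the 45 members was 3.71% in wild-type and 9.07% in Sept2C111A libraries, against 6.98% and 12.4% over all tested genes, and the SD was larger in Sept2C111A for 41 of 45. Sept2C111A library 3 was the highest of its genotype for 12 of 18 pump genes, and library 4 the lowest for 9. It was the highest for 7 of 19 hydrolases and the lowest for 8, and library 4 was the highest for 10 hydrolases and 6 pump genes. The summed CPM of the hydrolases was nearly the same in both (6716 and 6715). Library 1 was the highest for 0 of the 45.

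**Figure D3:**
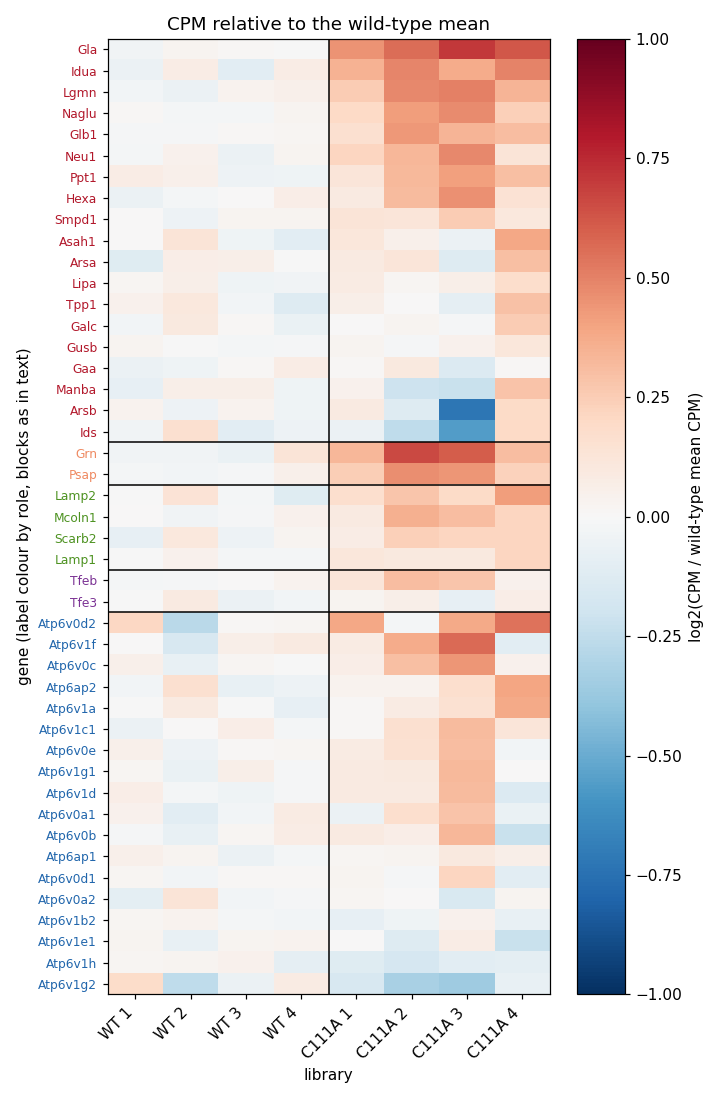
Colour gives log2 of CPM over the mean wild-type CPM for each tested member (rows, in blocks from hydrolases at the top to the V-ATPase at the bottom) in each library (columns). The called members are red in all 4 Sept2C111A columns, whereas Arsb and Ids are blue in Sept2C111A library 3 and red in library 4, and 12 of 18 pump genes are highest in library 3 among the Sept2C111A columns.

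This difference between libraries 3 and 4 moved with transcript length. Across the 45 members, log2 CPM in library 3 minus library 4 had a Spearman correlation of -0.55 with the length of the longest protein-coding transcript, and across 12180 tested genes it was -0.59; genes of 2 libraries share those libraries and are not independent replicates. Atp6v1f and Atp6v0b, with longest transcripts of 806 and 1000 bases, were higher in library 3, and Arsb and Ids, with 4038 and 4972 bases, were higher in library 4. The genotype log2 fold change had a Spearman correlation of -0.28 with length over the 12180 genes and -0.19 over the members. When a trend on length was removed from each library, a step added after the data were seen, edgeR called 12 members higher and 0 lower, where it called 11.5% of all tested genes. All 9 members called before were among the 12, and Hexa, Lamp2 and Scarb2 joined them (adjusted p = 0.041, 0.021 and 0.044). No pump gene was called with the trend removed, and the median log2 fold change of the pump was 0.05, against 0.12 in the hydrolases.

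**Figure D4:**
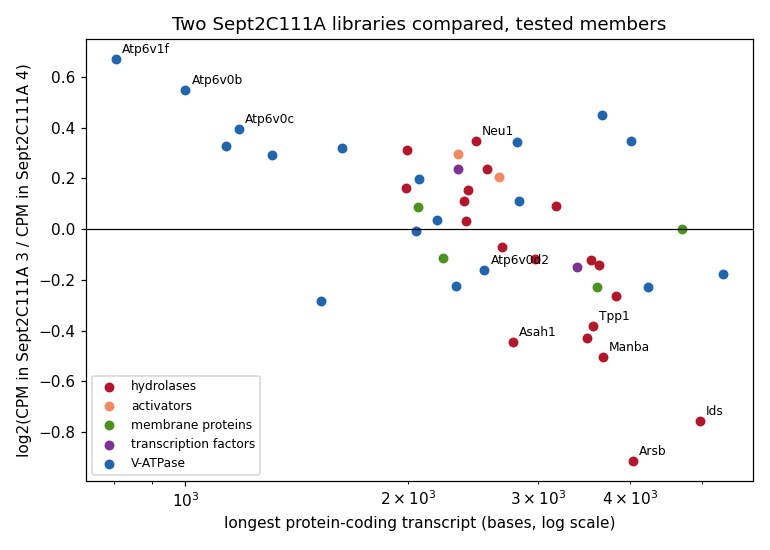
Each point is a tested member: the horizontal axis (log scale) is the length of its longest protein-coding transcript in bases, and the vertical axis log2 of its CPM in Sept2C111A library 3 over library 4. Short pump transcripts such as Atp6v1f and Atp6v0b lie above 0, and the long hydrolase transcripts Arsb and Ids lie lowest.

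Medians by role moved when Sept2C111A libraries were left out. Without library 3 the median log2 fold change was 0.17 in the hydrolases and 0.03 in the pump, and without library 4 it was 0.06 and 0.12. The mean over genes kept its order: the difference in mean log2 CPM between genotypes was 0.14 in the hydrolases and 0.09 in the pump without library 4, against 0.17 and 0.07 with all libraries. Without libraries 2 and 3 together, 19 of 19 hydrolases and 9 of 18 pump genes were above 0, with medians of 0.18 and 0.01. In that fit 6 members were called higher and 0 lower: Gla, Idua, Lgmn, Psap, Grn and Atp6v0d2, where 3.86% of all tested genes were called.

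Lysosomal genes outside the member list were counted in the same fit, in which 3.43% of all tested genes were higher; DESeq2 and limma voom called 11.5% and 10.9% in either direction. Of 30 other hydrolases and cofactors, 5 were called higher and 0 lower by edgeR (7 and 0 by DESeq2 and by limma voom, 1 lower at an unadjusted p under 0.05), with a median log2 fold change of 0.14. Sgsh, the heparan sulfamidase, rose from 19.7 ± 0.925 to 30.4 ± 2.88 CPM, Pla2g15, a lysosomal phospholipase, from 136 ± 4.08 to 182 ± 10.1 CPM, and Npc2, which hands cholesterol to NPC1, from 833 ± 31.2 to 1261 ± 188 CPM. With Idua and Naglu, Sgsh is an enzyme of heparan sulfate breakdown. Among 11 tested cathepsins, 5 were called higher and 0 lower by edgeR (6 and 0 by the other tools, 0 lower at an unadjusted p under 0.05), led by Ctss (900 ± 38.7 to 1312 ± 69.1 CPM), Ctsb (13419 ± 400 to 17927 ± 1966 CPM) and Ctsh (263 ± 12.9 to 337 ± 34.1 CPM).

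Of 30 other lysosomal membrane proteins, 3 were called higher and 0 lower by edgeR (4 and 0 by DESeq2, 3 and 0 by limma voom, 1 lower at an unadjusted p under 0.05). Over all tested genes edgeR called 3.43% higher, and DESeq2 and limma voom called 11.5% and 10.9% in either direction. Cln6, which acts in the endoplasmic reticulum in the export of lysosomal enzymes, rose from 63.6 ± 3.74 to 84.8 ± 7.27 CPM, Tpcn2, an endolysosomal cation channel, from 34.3 ± 2.07 to 43.6 ± 1.57 CPM, and Gpnmb, a glycoprotein of stressed lysosomes, from 2963 ± 162 to 3771 ± 289 CPM. The 14 pump genes outside the symbol rule, among them Tcirg1 and the assembly factors, had 0 called in either direction by edgeR, DESeq2 or limma voom and 0 at an unadjusted p under 0.05.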

How the data were processed

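For each of the 8 libraries (4 wild-type, 4 Sept2C111A) the authors deposited a table of RSEM-type expected counts by gene symbol. Bowtie2, RSEM (1.3.1), DESeq2 (1.4.5) and the mm10 build appear in the submitters' processing notes without roles; the labels state neither strandedness, annotation nor filters. Poly(A) RNA was selected on oligo(dT) beads, per the labels' protocols.

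Counts were rounded, filtered with filterByExpr (minimum count 10) and normalized by TMM. Genotypes were compared with edgeR's two-sided quasi-likelihood test (version 4.0.16, R 4.3.3; Benjamini-Hochberg adjustment over 12462 genes); SE is the fold change over the square root of F. Alternatives used DESeq2 1.42.0, limma 3.58.1, other scalings and filters, and fewer libraries. Positions and lengths come from GENCODE M21 (GRCm38, the mm10 build), promoters from RefSeq. Counts were also simulated with the mean levels and library sizes of this comparison (12396 genes). Of 99 genes changed by a log2 of 1, 94.9% were recovered, and of 100 changed by 0.5, 78%, with 16 false calls. The simulation gave all genes and both genotypes the same spread. In the data the common coefficient of variation beyond counting error was 0.0604 in wild-type and 0.138 in Sept2C111A libraries. These rates therefore do not carry over to the data. No 2 libraries were copies (mean chi-square per gene at least 3.87).

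Members and lists were chosen with earlier results of these data known. Values by library are given for called members, the most abundant of each role per kilobase, both factors and pump paralogs; other members, and those outside the lists' 3 smallest adjusted p, were named after their values were seen. Median transcript lengths include partial transcripts, so levels per kilobase are approximate.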

Additional observations from a re-analysis of the deposited data

Results flagged for a closer look

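In 7 of 90 groups of 4 libraries (45 members in each genotype), 1 library lay apart from the other 3, by a gap that took up most of the group's range (Dixon's test at 95%); chance gives about 1 in 20. In Sept2C111A libraries, library 4 was the high one for Galc, at 138 CPM against 115 to 118 CPM, and for Lamp1, at 2105 CPM against 1945 to 1962 CPM. Library 3 was high for Smpd1, at 42.2 CPM against 37.9 to 38.5 CPM, and low for Atp6v0a2, at 39.0 CPM against 43.3 to 44.1 CPM. Library 1 was low for Scarb2, at 189 CPM against 209 to 212 CPM. In wild-type libraries, library 4 was high for Grn, at 1967 CPM against 1720 to 1751 CPM, and library 2 was low for Atp6v1e1, at 152 CPM against 163 to 164 CPM.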

How the results depend on the processing

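The 9 members called higher numbered between 2 and 14 when single libraries were left out, the hydrolases between 2 and 8 (7 with all libraries), the membrane proteins between 0 and 1 and the pump genes between 0 and 2; over all genes the calls then ran from 162 to 1094 higher and from 104 to 983 lower. No member was called lower in any fit. DESeq2 gave 691 genes higher and 737 lower and called 2 membrane proteins, limma voom 672 and 681 with 1 membrane protein, an adjusted p under 0.10 gave 809 and 817 with 2 membrane proteins, and the fit with the length trend removed 674 and 765 with 2 membrane proteins. Leaving out Sept2C111A libraries 2 and 3 together, chosen after the data were seen, gave 282 and 210 genes, 3 hydrolases and 1 pump gene. With the sample number as a replicate block, 242 genes were called higher, 4 members and 3 hydrolases. Same-numbered libraries correlated between -0.237 and 0.137 in their deviations. So few values cannot show whether the numbers pair the samples, and the labels do not say. The cause of these shifts was not tested.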

Other observations

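Genes that deliver enzymes to the lysosome and move or fuse it were counted in the same fit, in which 6.46% of all tested genes were called. DESeq2 called 11.5% and limma voom 10.9% of all genes they tested, and 24.8% had an unadjusted p under 0.05 in edgeR. Of 23 genes of tethering and positioning (the HOPS, CORVET and BORC complexes), edgeR called 2 higher and 0 lower (DESeq2 3 and 0, limma voom 2 and 0, with 0 lower at an unadjusted p under 0.05): Kxd1, a BORC subunit (46.7 ± 2.78 to 64.8 ± 7.29 CPM), and Plekhm1, an adaptor that links RAB7 to HOPS (77.9 ± 2.75 to 96.5 ± 7.01 CPM). Rab7 itself measured 606 ± 21.4 and 590 ± 18.1 CPM and was named after its value was seen. In the mannose 6-phosphate and other sorting routes, 0 of 18 genes passed in edgeR, DESeq2 or limma voom, and 2 had an unadjusted p under 0.05; the most abundant, Lrp1, measured 720 ± 15.4 and 714 ± 168 CPM.

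For autophagy, 0 of 28 genes passed in edgeR, with 9 at an unadjusted p under 0.05, while DESeq2 called 3 higher and 1 lower and limma voom 4 and 1. Over all tested genes these shares, in either direction and the same order, were 6.46%, 24.8%, 11.5% and 10.9%. Their median log2 fold change was 0.11 and 23 were above 0. The most abundant, the cargo receptor gene Sqstm1, had a negative log2 fold change of -0.22 (2323 ± 64.9 to 1998 ± 15.7 CPM, adjusted p = 0.054).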
